A study of Mus musculus with 8 samples.

Results

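The genes examined here encode the secreted and membrane-bound enzymes that cut the extracellular matrix, together with their inhibitors, in cells sorted from growing mouse molars. Members were all protein-coding genes named as a matrix metalloproteinase (Mmp followed by a number), as an ADAMTS or ADAMTS-like protein, or as Timp1 to Timp4. The rule found 51 genes among the 56748 of the deposited count table: 23 MMP, 19 ADAMTS, 5 ADAMTS-like and 4 TIMP genes. RefSeq lists all 51 as protein-coding, while GENCODE vM21 has Mmp1a as a polymorphic pseudogene. Of them, 44 had enough counts to be tested.

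The libraries come from tdTomato-positive cells that were sorted from mandibular molars at postnatal day 10, after a tamoxifen pulse at day 3. In the group named cHet (4 libraries), 1 copy of Ctnnb1, the beta-catenin gene, carries the conditional deletion, with the genotype given as Ctnnb1(+/-). In the group named cKO (4 libraries), both copies carry it, with the genotype given as Ctnnb1(-/-). The tamoxifen pulse, the reporter and at least 1 deleted copy are thus common to both groups, and no group with both copies intact is among the libraries. The labels name the sorted cells as CXCL12+ and from the apical papilla, which lies below the forming root, but give the tissue as dental pulp and the dissociated cells as dental follicle. The promoter behind the recombinase, the deleted exons and the animals behind each library remain unknown (not given in the sources used here).

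Matrix metalloproteinases are zinc enzymes made as inactive precursors; between them they cut fibrillar collagen, denatured collagen, basement membrane and other secreted proteins. ADAMTS enzymes trim procollagens, cut large proteoglycans such as versican and aggrecan, or act on fibrillin microfibrils, and the ADAMTS-like proteins share their binding domains but have no catalytic domain. TIMPs block these enzymes by occupying the active site. In forming teeth, MMP20 is known for processing enamel proteins, and MMP2 and MMP14 for remodelling of the dentin and root matrix.

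Facts of the libraries bear on what follows. Total counts lay between 44444033 and 50051392. Levels are given as CPM, the count scaled to the library total after TMM adjustment. Ctnnb1 itself had 257 ± 40.2 CPM in cHet and 277 ± 39.2 CPM in cKO (SD, n = 4 each, two-sided exact permutation p = 0.486), and counts summed over a whole gene include exons outside a deletion, so this value does not check the labels. All 8 listed papilla and pulp markers were detected, with summed levels of 479 to 1352 CPM in cHet and 2893 to 5323 CPM in cKO, and Cxcl12 stood at 149 ± 91.5 and 826 ± 238 CPM. Transcripts of other tissues were present at higher summed levels in every library: 12 olfactory epithelium markers at 6301 to 12580 CPM and 10 ameloblast and enamel epithelium markers at 2464 to 11700 CPM, with overlapping groups for both. Markers of general mesenchyme (18 genes) summed to 4162 to 13187 CPM in cHet and 15017 to 30416 CPM in cKO, without overlap. The two-sided exact permutation p was 0.0286, the smallest 4 against 4 libraries can give, and 0.129 adjusted over 9 marker lists. On the mean log2 level of these genes, which the scaling below uses, the same test gave an unadjusted p of 0.0571. The papilla and pulp sums did not overlap either (two-sided exact permutation p = 0.0286, 0.129 adjusted over 9 marker lists). Their mean log2 level was 2.10 higher in cKO, against 1.18 for general mesenchyme, and no scaling to the papilla list was made. In bulk libraries more cells of a type and more RNA per cell cannot be told apart. The part of the mesenchymal and papilla differences in the results below was not tested. Among cHet libraries, cHet12 stood apart in 9 neutrophil markers, all detected, with a sum of 19812 CPM against 24.7 to 1437 CPM in the other 7 libraries. Among cKO libraries, cKO9 had the lowest mesenchymal and papilla sums.

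The upstream sequences of a few members are shown because members of 1 gene cluster share an element there. Those of Timp3 and Adamts20, which rose in cKO, are set beside them. Adamts10, which also rose, and Mmp2 had no window at hand. RefSeq promoter windows (build GRCm38.p6) were at hand for 36 of the 51 genes in 39 windows, and the 250 bases before the start site were searched on both strands for the AP-1 motif TGANTCA, the RUNX motif TGTGGT, the TCF/LEF motifs CTTTGAT and CTTTGAA, and the TATA motif TATAAA. Capitals mark matches to any of these motifs, read 5′ to 3′ along the gene.
Mmp13, chr9:7272264-7272513, plus strand: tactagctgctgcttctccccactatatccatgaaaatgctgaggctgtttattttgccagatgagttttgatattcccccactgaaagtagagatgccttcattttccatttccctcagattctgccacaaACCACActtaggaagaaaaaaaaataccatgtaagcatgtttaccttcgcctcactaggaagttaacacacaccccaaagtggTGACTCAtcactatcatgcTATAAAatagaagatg
Mmp20, chr9:7627981-7628230, plus strand: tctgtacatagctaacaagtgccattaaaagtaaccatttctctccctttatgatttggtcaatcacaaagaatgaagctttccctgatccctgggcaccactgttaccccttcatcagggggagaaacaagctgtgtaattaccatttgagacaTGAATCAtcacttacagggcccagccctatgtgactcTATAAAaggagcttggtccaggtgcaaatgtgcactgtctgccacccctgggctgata
Mmp8, chr9:7558179-7558428, plus strand: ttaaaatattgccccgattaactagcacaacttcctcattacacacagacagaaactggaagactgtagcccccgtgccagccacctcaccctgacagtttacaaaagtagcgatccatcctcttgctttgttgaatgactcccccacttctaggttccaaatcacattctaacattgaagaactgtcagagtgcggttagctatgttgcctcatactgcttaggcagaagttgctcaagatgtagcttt
Timp3, chr10:86300162-86300411, plus strand: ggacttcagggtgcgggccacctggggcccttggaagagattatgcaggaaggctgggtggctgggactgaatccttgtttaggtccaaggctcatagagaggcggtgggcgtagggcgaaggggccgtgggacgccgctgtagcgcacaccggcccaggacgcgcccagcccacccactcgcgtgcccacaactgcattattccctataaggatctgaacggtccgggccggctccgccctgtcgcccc
Adamts20, chr15:94404351-94404600, minus strand: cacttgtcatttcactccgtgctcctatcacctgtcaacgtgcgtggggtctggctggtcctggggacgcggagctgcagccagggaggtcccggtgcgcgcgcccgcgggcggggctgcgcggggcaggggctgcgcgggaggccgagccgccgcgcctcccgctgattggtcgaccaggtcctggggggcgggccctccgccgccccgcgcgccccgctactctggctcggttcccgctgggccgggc

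The Mmp13 window, from the collagenase-3 gene, holds an AP-1 match that begins 35 bases before the start site, a RUNX match 118 bases before it and a TATA match 16 bases before it. The Mmp20 window, from the enamelysin gene, holds an AP-1 match at 95 and a TATA match at 58 bases before the start. No match of these motifs lies in the windows of Mmp8, Timp3 and Adamts20. AP-1 matches were present in 8 of the 39 member windows (20.5%) and in 6.75% of all 32841 windows of the table. All 8 belong to the MMP genes that lie side by side on chromosome 9, where 8 of 10 genes have one, and none lies in the 27 windows of the other members. RUNX matches were present in 6 of 39 windows (15.4%, against 14% of all windows) and TCF/LEF matches in 2 of 39 (5.13%, against 7.48%), those of Mmp7 and Mmp21. TATA matches were present in 10 of 39 windows (25.6%, against 12.4% of all windows). A match is a run of letters and not a measured binding site.

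Across the family, 4 genes rose in cKO and none fell in edgeR's quasi-likelihood test, in which a gene is called at a Benjamini-Hochberg adjusted p under 0.05 over all 21508 tested genes. They were the inhibitor gene Timp3, the fibrillin-associated protease gene Adamts10, the proteoglycan-cleaving protease gene Adamts20 and the collagenase gene Mmp13. Of the 44 tested members this is 9.09%, where 1.08% of all tested genes were called higher and 0.0558% lower. At an unadjusted p under 0.05, edgeR gave 17 members higher and 3 lower, where 10.8% and 6.33% of all tested genes had such values. DESeq2 called 11 members higher and 3 lower (6.79% and 2.71% of all genes), and limma voom called 12 and 1 (5.96% and 1.26%). With RLE in place of TMM factors, edgeR called Timp3 and Adamts10 (0.832% higher and 0.0372% lower). Mmp13 lost its edgeR call there (adjusted p = 0.0536), with library size alone (0.0565) and without a count filter (0.0503). In 11 members every cKO library lay above every cHet library and in 2 every cKO library lay below, where 6.46% and 3.68% of all tested genes did so. The median log2 fold change of the 44 was 0.62, and that of all tested genes −0.027. A positive log2 value was found in 28 of the 44 members, and in 47.5% of all tested genes.

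**Figure D1:**
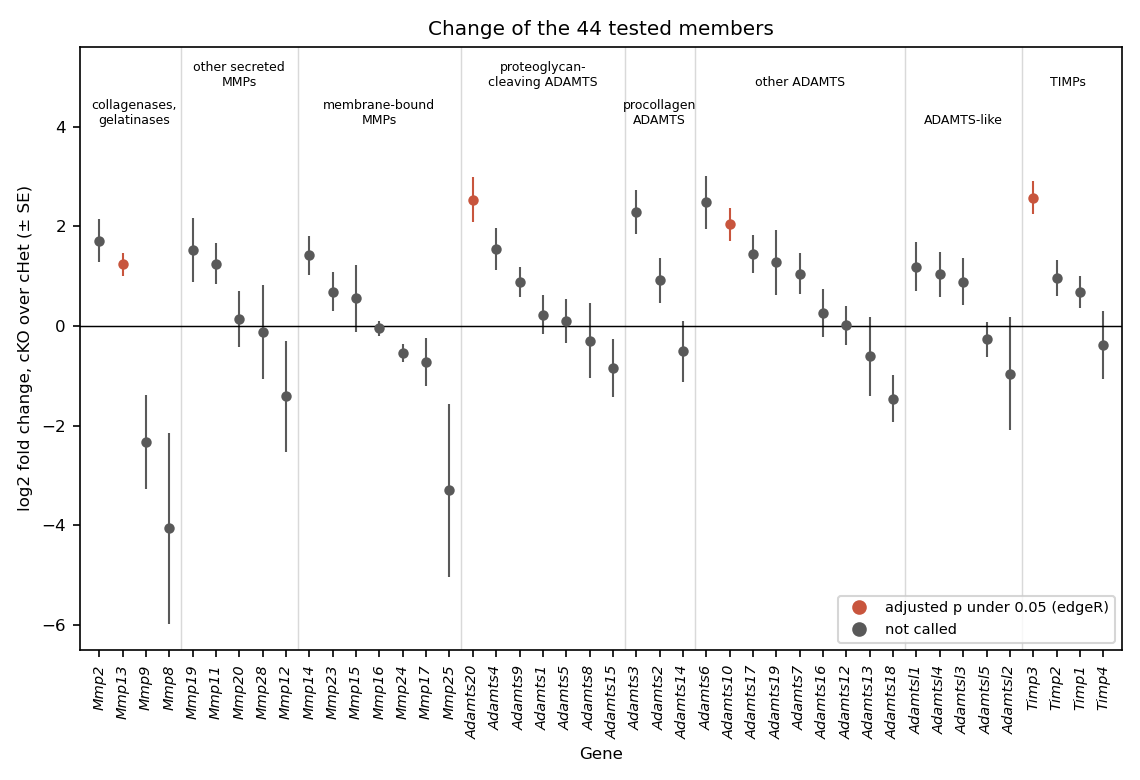
Log2 fold change of cKO over cHet (vertical axis, points with bars of 1 SE, n = 4 against 4 libraries) for the 44 tested members, ordered by role along the horizontal axis. The 4 called genes are in red, and the lowest values, those of Mmp8 and Mmp25, carry the longest bars.

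The 4 calls rest on every library but 1 or 2. Without cKO9 the 4 stayed called among 8 members called higher and 1 called lower (3.67% and 0.648% of all genes), and without cHet8 Timp3, Adamts10 and Adamts20 did (0.698% and 0.0045% of all genes). Leaving out cHet11, cHet12, cHet14, cKO14, cKO15 or cKO7 ended every member call in edgeR, with adjusted p between 0.0716 and 0.131 for Timp3, 0.0642 and 0.147 for Adamts10, and 0.103 and 0.157 for Adamts20. Mmp13 lost its call in these and without cHet8 (0.0788 to 0.160). In the fits without cHet11, cKO15 and cKO7 the background was 0.0181%, 0.0357% and 0.0357% higher and 0% lower, and in the other 3 no gene at all was called. Unadjusted p-values under 0.05 numbered 14 to 19 among the members in those 6 fits, where 11.4% to 15.6% of all genes had one, and the fits were made with edgeR alone. When libraries were scaled to the mesenchymal markers, the median of all tested genes moved to −1.29 and no member was called, where 0.0232% of all genes were called higher and 0.0139% lower. At an unadjusted p under 0.05 there were 16 members in either direction, a smaller share than the 52.3% of all genes on that scale. The edgeR adjusted p of 0.0576 given below for Timp3, Adamts10 and Adamts20 on that scale was not particular to rises. Adamts18 (log2 −2.45), Mmp24 (−1.79) and Mmp9 (−3.26) had the same adjusted p there. On that scale 14 of the 44 members had a positive and 30 a negative log2 value, with a median of −0.48, and 28 lay above the median of all genes. Values on that scale are also given as the distance from that median. This distance takes most of the scaling out again and lies close to the unscaled log2 value. It is therefore no separate check that a rise remains after mesenchymal scaling.

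**Figure D2:**
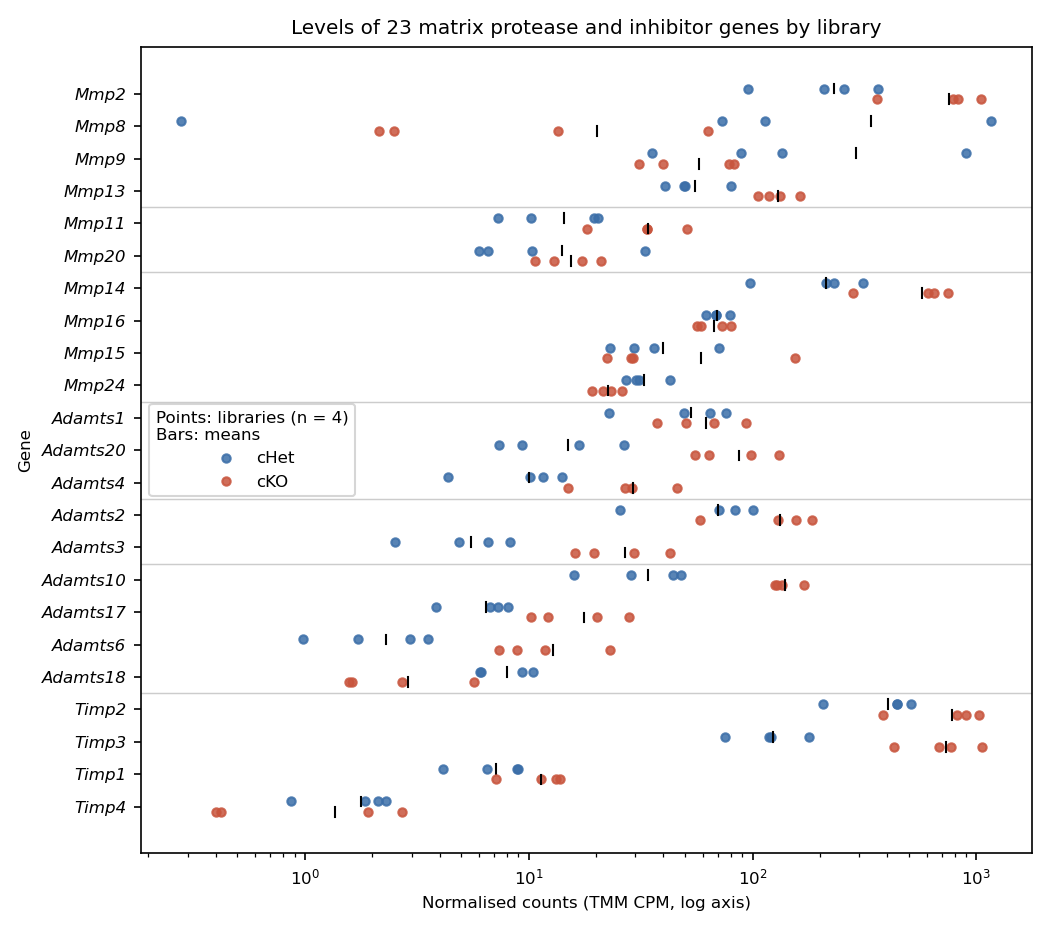
Normalised counts (CPM, logarithmic horizontal axis) of the 23 members described by library, with 1 point per library, blue for cHet and red for cKO, and a black bar at each mean of 4. For the called genes Timp3, Adamts10, Adamts20 and Mmp13 the red points all lie to the right of the blue ones, and for Adamts18 and Mmp24 all lie to the left.

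Among the inhibitors, Timp3 rose 5.97-fold and the other 3 genes did not pass the test. TIMP3 is the family member that stays bound to the matrix and that also inhibits ADAMTS aggrecanases. Timp3 (ENSMUSG00000020044.14, chromosome 10) stood at 179 CPM in cHet8, 75.0 in cHet11, 118 in cHet12 and 121 in cHet14, and at 768 CPM in cKO7, 430 in cKO9, 682 in cKO14 and 1061 in cKO15. The lowest cKO library held more than double the highest cHet library. The log2 fold change was 2.58 (SE 0.34, edgeR adjusted p = 0.0327), the smallest adjusted p of the members, and between 2.35 and 2.81 with 1 library left out. Scaled to the mesenchymal markers it was 1.38 (adjusted p = 0.0576), which is 2.67 above the median of all genes on that scale. Timp3 lies inside Syn3, a synapsin gene on the opposite strand, with 1733 shared exonic bases, and the libraries do not mark strand. Syn3 itself had 5.34 ± 1.01 CPM in cHet and 3.88 ± 1.36 CPM in cKO, below the Timp3 level of every library.

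Timp2, whose protein helps MMP14 activate MMP2 at low dose and blocks both at high dose, stood at 513, 207, 444 and 442 CPM in cHet8, cHet11, cHet12 and cHet14, and at 823, 381, 901 and 1024 CPM in cKO7, cKO9, cKO14 and cKO15. The groups overlapped through cKO9, and the log2 value of 0.96 (SE 0.35, edgeR adjusted p = 0.224) did not pass; it was −0.23 with mesenchymal scaling, 1.06 above the median of all genes. Timp1, an inducible inhibitor, stood at 6.49, 4.15, 8.84 and 8.98 CPM in the same order of cHet libraries and at 11.3, 7.14, 13.3 and 13.8 CPM in cKO (log2 0.68, edgeR adjusted p = 0.335). Timp4 was near the bottom of the family, with 0.864 to 2.29 CPM (cHet) and 0.401 to 2.71 CPM (cKO). Timp1 and Timp4 also lie within synapsin genes, Syn1 and Syn2, which stood above them at 62.2 ± 13.2 and 56.9 ± 18.3 CPM in cHet. Timp1 shares no exonic base with Syn1, and Timp4 shares 90 with Syn2.

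Levels of different genes were compared per kilobase of exonic length. On this scale Timp2 was the most abundant of the 4 TIMP genes in all 8 libraries and made up 78.9% to 82.1% of their sum in cHet and 61.5% to 70% in cKO. Timp3 made up 10.5% to 13.6% in cHet and 25.4% to 33.2% in cKO, without overlap. The summed TIMP level over the summed MMP level, leaving out Mmp8, Mmp9 and Mmp25 (highest together with the neutrophil markers, below), was 0.722 to 0.827 in cHet and 0.624 to 0.773 in cKO, with overlapping groups. Timp3 over the sum of Mmp2 and Mmp14 was 0.130 to 0.206 in cHet and 0.250 to 0.342 in cKO. These ratios were formed after the values were seen and carry no test.

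**Figure D3:**
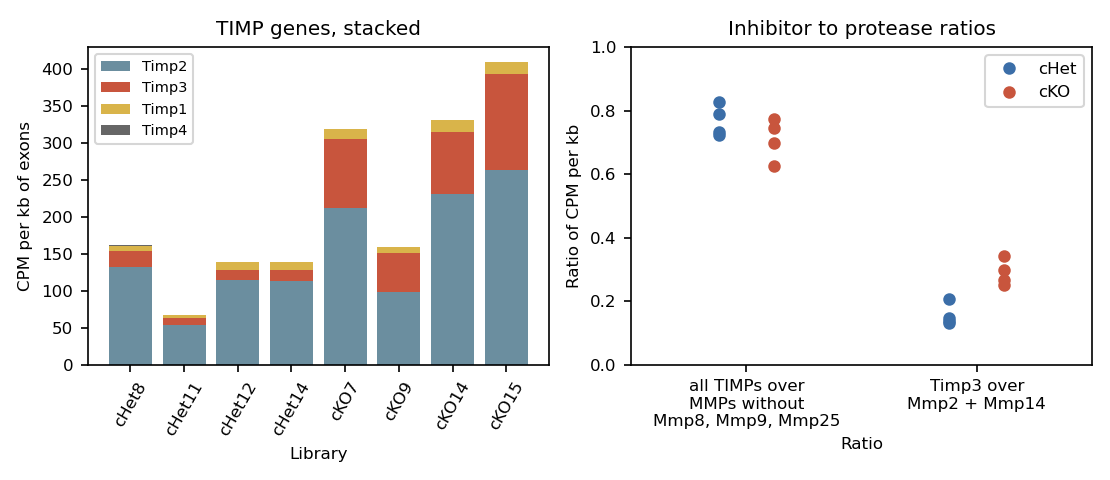
Left, CPM per kilobase of exons (vertical axis) of the 4 TIMP genes stacked for each library; right, ratios of CPM per kilobase, 1 point per library. The Timp3 layer takes 10.5% to 13.6% of the bar in cHet and 25.4% to 33.2% in cKO, while the ratio of all TIMPs to MMPs overlaps between the groups.

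Of the collagenases and gelatinases, Mmp13 rose 2.36-fold, Mmp2 had higher means without passing, and Mmp8 and Mmp9 were led by 1 library. MMP13, collagenase-3, cuts fibrillar collagen in cartilage and bone. Mmp13 (ENSMUSG00000050578.11, chromosome 9) stood at 40.6, 50.05, 49.5 and 80.1 CPM in cHet8, cHet11, cHet12 and cHet14, and at 133, 105, 164 and 119 CPM in cKO7, cKO9, cKO14 and cKO15. No cKO value fell within the cHet range, and the log2 fold change was 1.24 (SE 0.23, edgeR adjusted p = 0.0497), at the edge of the threshold; with mesenchymal scaling its log2 value was −0.092 (adjusted p = 0.866), which is 1.20 above the median of all genes on that scale. The AP-1, RUNX and TATA matches printed above are those of this gene.

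Mmp2, gelatinase A, which digests denatured collagen and basement membrane collagen, stood at 363, 95.7, 256 and 208 CPM in cHet8, cHet11, cHet12 and cHet14. In cKO7, cKO9, cKO14 and cKO15 it stood at 831, 361, 785 and 1050 CPM. Only cKO9 reached into the cHet range, just below cHet8. The log2 value was 1.72 (SE 0.44, edgeR adjusted p = 0.105), and 1.95 without cKO9, where the gene was called (adjusted p = 0.0409). DESeq2 called it (adjusted p = 0.00275), as did limma voom (0.0243). With mesenchymal scaling the log2 value was 0.61 (adjusted p = 0.1504), 1.90 above the median of all genes.

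Mmp14, the membrane-type enzyme MT1-MMP that activates pro-MMP2 on the cell surface, stood at 311, 97.1, 212 and 231 CPM in cHet8, cHet11, cHet12 and cHet14 and at 646, 282, 606 and 746 CPM in cKO7, cKO9, cKO14 and cKO15. Its libraries ranked much as those of Mmp2 did, with cKO9 again inside the cHet range. The log2 value was 1.42 (SE 0.39, edgeR adjusted p = 0.124), 1.65 without cKO9 (adjusted p = 0.0436), and 0.28 with mesenchymal scaling (adjusted p = 0.495), 1.56 above the median of all genes. Per kilobase, Mmp2 exceeded Mmp14 in every library, 1.59 to 2.14 times in cHet and 2.26 to 2.49 times in cKO. Per kilobase Mmp2 was also the highest member mean in cKO (225 CPM per kb, followed by Timp2 at 201, Mmp14 at 95.7 and Timp3 at 90.3), and the spreads of Mmp2 and Timp2, and of Mmp14 and Timp3, overlapped.

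Mmp8, neutrophil collagenase, Mmp9, gelatinase B of neutrophils and osteoclasts, and Mmp25, the leukocyte membrane enzyme leukolysin, had their highest value in the same library. Mmp25 is described here because of its values and falls outside the rule for genes given by library. Mmp8 stood at 1168 CPM in cHet12, at 113 in cHet8, 73.3 in cHet11 and 0.281 in cHet14, and at 63.0, 2.51, 13.5 and 2.14 CPM in cKO7, cKO9, cKO14 and cKO15. Mmp9 stood at 899 CPM in cHet12, at 135, 88.9 and 35.7 CPM in cHet8, cHet11 and cHet14, and at 78.4, 31.2, 82.3 and 39.8 CPM in the cKO libraries. Mmp25 stood at 56.9 CPM in cHet12 and at 0 to 3.28 CPM in the other 7 libraries. All 3 were highest in the library with the highest neutrophil sum, and the summed neutrophil level was 51.2 CPM in cHet14 and 24.7 CPM in cKO15, where Mmp8 was lowest in its group. The order did not hold throughout. The neutrophil sum was 1301 CPM in cKO14 and 787 CPM in cKO7, but Mmp8 was lower in cKO14. Mmp9 was lowest of the cKO libraries in cKO9 and not in cKO15.

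None of the 3 passed edgeR's test. Their log2 values were −4.06 for Mmp8 (SE 1.91, adjusted p = 0.326), −2.32 for Mmp9 (SE 0.94, adjusted p = 0.258) and −3.30 for Mmp25 (SE 1.74, adjusted p = 0.380). Without cHet12 they were −1.62, −0.58 and 0.15 (adjusted p = 0.698, 0.649 and 0.974), and the cHet means of Mmp8 and Mmp9 were then 62.3 ± 57.3 and 86.5 ± 49.6 CPM (SD, n = 3). DESeq2 on all libraries called Mmp9 lower (adjusted p = 0.0422). Macrophage and osteoclast markers (10 genes) were also highest in cHet12, with a sum of 2859 CPM against 123 to 874 CPM elsewhere. The part of these cells in the 3 values was not tested beyond leaving the library out.

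**Figure D4:**
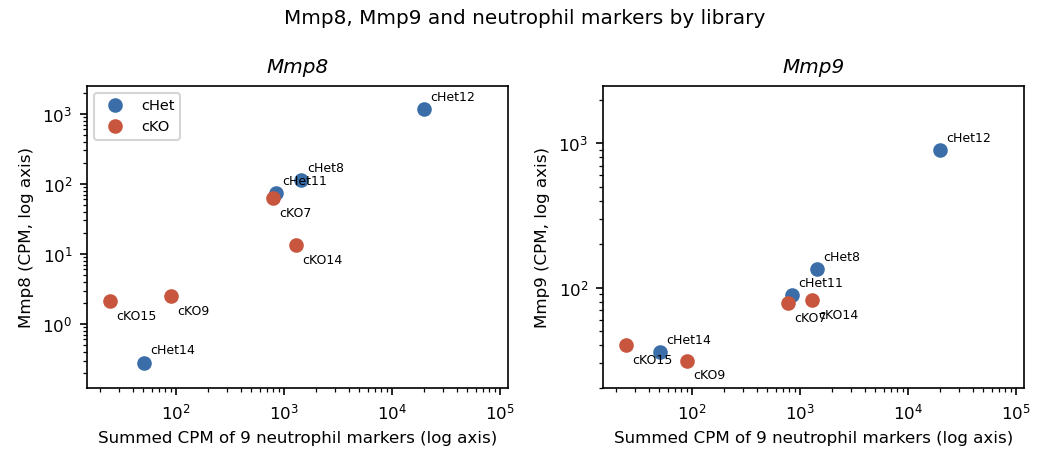
Level of Mmp8 (left) and Mmp9 (right) in CPM against the summed CPM of 9 neutrophil markers, both axes logarithmic, 1 labelled point per library. cHet12 lies at the upper right in both, at 1168 CPM of Mmp8 and 899 CPM of Mmp9 with 19812 CPM of markers.

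The other secreted MMPs held no called gene among 5 tested. Mmp11, stromelysin-3, which furin activates inside the cell, stood at 20.3, 7.26, 19.6 and 10.3 CPM in cHet8, cHet11, cHet12 and cHet14 and at 51.1, 18.2, 33.8 and 33.8 CPM in cKO7, cKO9, cKO14 and cKO15 (log2 1.25, SE 0.41, edgeR adjusted p = 0.183). It overlapped through cKO9 alone. Mmp11 shares 155 exonic bases with Chchd10 on the opposite strand, which had 25.6 ± 4.80 and 21.5 ± 3.08 CPM in the groups.

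Mmp20, the enamel protease, stood at 33.2 CPM in cHet8 and 10.3, 5.97 and 6.56 CPM in cHet11, cHet12 and cHet14, and at 10.7, 13.0, 17.2 and 21.0 CPM in cKO7, cKO9, cKO14 and cKO15. cHet8 also had the highest enamel marker sum (11700 CPM), and cHet12 the lowest of both. The log2 value was 0.14 (SE 0.56, edgeR adjusted p = 0.933) with all libraries and 1.02 without cHet8 (adjusted p = 0.193). Mmp19, Mmp12 and Mmp28 stayed below 5 CPM in every library.

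Of the 7 membrane-bound MMPs none was called. Mmp24, MT5-MMP, an enzyme known from neurons, had its lower values in the cKO libraries, with 27.3, 30.2, 30.9 and 42.9 CPM in cHet8, cHet11, cHet12 and cHet14, and 23.3, 26.1, 21.6 and 19.2 CPM in cKO7, cKO9, cKO14 and cKO15. The gap between the groups was narrow, and the log2 value of −0.54 (SE 0.18) did not pass in edgeR (adjusted p = 0.185) but did in DESeq2 (0.0470). Mmp24 shares 637 exonic bases with BC029722 on the opposite strand, which stood at 11.3 to 16.2 CPM in all 8 libraries. Mmp16, MT3-MMP, was the steadiest of the members given by library, between 62.0 and 79.5 CPM in cHet and between 56.4 and 80.4 in cKO (log2 −0.05, SE 0.15). Mmp15, MT2-MMP, stood at 155 CPM in cKO9 and at 22.4 to 29.2 CPM in the other cKO libraries, against 23.1 to 70.8 CPM in cHet, so its log2 value of 0.56 turned to −0.58 without cKO9 (edgeR adjusted p = 0.740 and 0.412).

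The proteoglycan-cleaving ADAMTS genes gave 1 called gene of 7. ADAMTS20 cuts versican and is the product of the belted coat-colour locus. Adamts20 (ENSMUSG00000022449.15, chromosome 15) stood at 26.5, 7.38, 16.8 and 9.35 CPM in cHet8, cHet11, cHet12 and cHet14, and at 98.4, 55.5, 63.9 and 131 CPM in cKO7, cKO9, cKO14 and cKO15. The lowest cKO library was above the highest cHet library, and the fold change of means was 5.81 (log2 2.54, SE 0.46, edgeR adjusted p = 0.0473). With mesenchymal scaling its log2 value was 1.48 (adjusted p = 0.0576), 2.76 above the median of all genes.

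Adamts4, an aggrecanase, stood at 14.1, 4.38, 11.6 and 10.1 CPM in cHet8, cHet11, cHet12 and cHet14 and at 29.0, 14.9, 26.8 and 46.1 CPM in cKO7, cKO9, cKO14 and cKO15. The groups did not overlap, by a margin of under 1 CPM, and edgeR did not call it (log2 1.54, SE 0.43, adjusted p = 0.127). Adamts1, a versican-cleaving enzyme, overlapped between the groups, at 22.9 to 75.8 CPM in cHet and 37.6 to 93.3 CPM in cKO (log2 0.23, edgeR adjusted p = 0.830), and so did the aggrecanase gene Adamts5, at 3.55 to 16.1 and 7.10 to 14.7 CPM (log2 0.09). Adamts9 did not overlap, at 6.03 to 15.4 and 19.0 to 22.0 CPM (log2 0.89, adjusted p = 0.198), and Adamts8 and Adamts15 had negative log2 values that did not pass.

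Of the 3 procollagen-processing genes, which remove the amino-terminal propeptide of fibrillar procollagens, none was called. Adamts3 stood at 8.21, 2.52, 6.56 and 4.88 CPM in cHet8, cHet11, cHet12 and cHet14 and at 16.03, 19.6, 29.5 and 42.9 CPM in cKO7, cKO9, cKO14 and cKO15. Each cKO library lay above each cHet library, and the log2 value of 2.28 (SE 0.44) narrowly missed the threshold in edgeR (adjusted p = 0.0545). It was called by DESeq2 (1.75e-05), by limma voom (0.0145) and by edgeR without cKO9 (0.0376), and was at 1.17 with mesenchymal scaling (adjusted p = 0.0590). Adamts2, the main procollagen I enzyme, stood at 83.1, 25.5, 100 and 70.7 CPM in cHet and 130, 58.4, 156 and 183 CPM in cKO in the same order, with cKO9 inside the cHet range (log2 0.92, edgeR adjusted p = 0.345; −0.22 with mesenchymal scaling, 1.07 above the median of all genes). Adamts14 stood below 5 CPM in every library.

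Among the remaining 9 ADAMTS genes, Adamts10 rose, and Adamts6 and Adamts17 had higher means in cKO without passing edgeR's test. ADAMTS10 binds fibrillin microfibrils. Adamts10 (ENSMUSG00000024299.18, chromosome 17) stood at 47.7, 15.9, 44.2 and 28.7 CPM in cHet8, cHet11, cHet12 and cHet14, and at 136, 128, 126 and 170 CPM in cKO7, cKO9, cKO14 and cKO15. The cKO libraries were tightly grouped, cKO9 included, and the means stood 4.11-fold apart (log2 2.04, SE 0.32, edgeR adjusted p = 0.0377). With mesenchymal scaling the log2 value was 0.9997 (adjusted p = 0.0576), 2.29 above the median of all genes.

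Adamts6, the closest relative of Adamts10, stood at 3.55, 1.73, 0.977 and 2.94 CPM in cHet8, cHet11, cHet12 and cHet14 and at 7.402, 8.91, 11.9 and 23.1 CPM in cKO7, cKO9, cKO14 and cKO15, without overlap. Its log2 value was 2.48 (SE 0.52, edgeR adjusted p = 0.0670), with calls by DESeq2 (5.40e-05) and limma voom (0.0191) and a log2 value of 1.17 with mesenchymal scaling (adjusted p = 0.118). Adamts17, mutated like ADAMTS10 in a short-stature and lens syndrome, stood at 8.07, 3.85, 7.29 and 6.69 CPM in cHet and 12.2, 10.2, 20.1 and 28.2 CPM in cKO in the same order (log2 1.45, SE 0.38, edgeR adjusted p = 0.116).

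Adamts18 had its higher values in cHet, at 10.5, 6.05, 6.14 and 9.35 CPM in cHet8, cHet11, cHet12 and cHet14 against 2.72, 5.69, 1.63 and 1.58 CPM in cKO7, cKO9, cKO14 and cKO15. The highest cKO value, that of cKO9, was close below the lowest of cHet. The log2 value was −1.46 (SE 0.47, edgeR adjusted p = 0.179), and −2.02 without cKO9, where it was called lower (adjusted p = 0.0339). DESeq2 (0.0209) and limma voom (0.0239) also called it lower. Adamts7, a protease of the cartilage protein COMP, did not overlap (2.11 to 6.15 and 6.35 to 12.3 CPM, log2 1.05, edgeR adjusted p = 0.248), and Adamts12, which cuts the same protein, did (log2 0.01). Of the 5 ADAMTS-like genes none was called; Adamtsl1, Adamtsl3 and Adamtsl4 had log2 values of 0.89 to 1.19 and Adamtsl2 and Adamtsl5 of −0.96 and −0.27, with overlapping groups in each.

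On chromosome 9 the order of the MMP genes is Mmp13, Mmp12, Mmp1b, Mmp3, Mmp1a, Mmp10, Mmp8, Mmp27, Mmp20 and Mmp7, with no other protein-coding gene between them in GENCODE vM21. Their levels differed widely. Of the 10, 8 have an AP-1 match in the window searched, Mmp8 not among them, and a relation of match to level was not tested. Mmp13 stood at 40.6 to 164 CPM over all libraries. Mmp1a, Mmp1b, Mmp10 and Mmp7 had 0 counts in all 8 libraries, which allows a level of up to 0.0569 to 0.0706 CPM per library (3 counts, counting error only). Mmp3 had 90 counts in cHet8, 41 in cHet12, 27 in cKO14 and 7 in cHet14 and 0 in the other 4 libraries, and Mmp27 had at most 35. Outside the cluster Mmp21 was also untested, with at most 13 counts in a library.

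**Figure D5:**
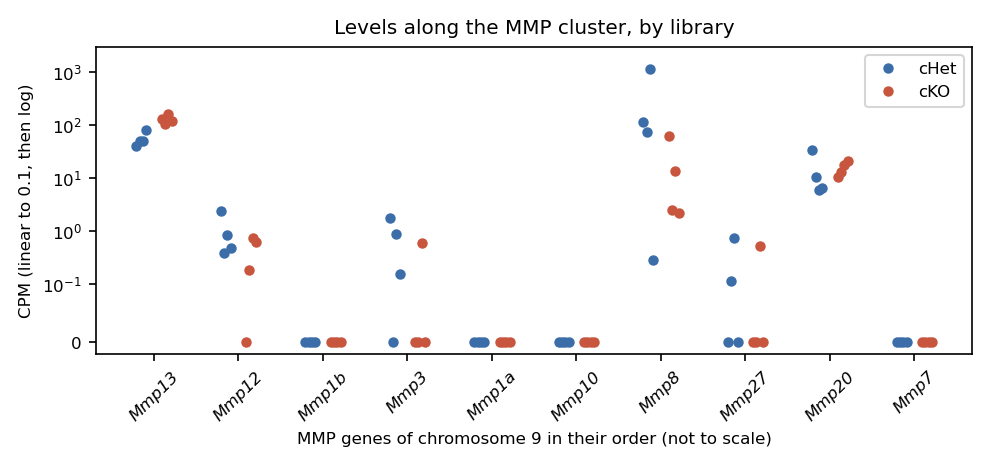
CPM of the 10 MMP genes of chromosome 9 in their genomic order (horizontal axis, not to scale; vertical axis linear to 0.1 and logarithmic above), 1 point per library, blue for cHet and red for cKO. Mmp13 is separated by group, Mmp8 spans 0.281 to 1168 CPM within cHet, and 4 genes lie at 0 in all libraries.

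Genes around the family were read from the same fit, in lists of 53 genes. Among 11 substrates and binding partners, edgeR called 3 higher and 0 lower, where 1.08% and 0.0558% of all tested genes were called. Of the 11, 8 had a positive and 3 a negative log2 value. In 4 every cKO library lay above every cHet library and in 1 every cKO library lay below, where 6.46% and 3.68% of all tested genes did so. Vcan, the proteoglycan versican cut by ADAMTS enzymes, stood at 72.0, 20.2, 37.7 and 30.0 CPM in cHet8, cHet11, cHet12 and cHet14 and at 183, 215, 259 and 374 CPM in cKO7, cKO9, cKO14 and cKO15 (log2 2.69, SE 0.41, edgeR adjusted p = 0.0376). Lrp1, the endocytic receptor that clears MMPs and TIMPs, rose from 67.6 ± 27.1 to 269 ± 74.4 CPM (log2 1.995, SE 0.31, adjusted p = 0.0377). Fbn1, the main fibrillin, rose from 31.7 ± 15.1 to 116 ± 30.2 CPM (log2 1.88, SE 0.35, adjusted p = 0.0497). These 3 calls ended in the same 6 omissions as those of Timp3, Adamts10 and Adamts20, and in all of them no related gene was called.

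None of 10 tested activators and plasmin-system genes was called in edgeR (5 higher and 2 lower at an unadjusted p under 0.05, where 10.8% and 6.33% of all genes were), nor of 9 other inhibitors (3 and 0) or 17 other proteases (5 and 2). Over all 4 lists DESeq2 called 13 higher and 3 lower and limma voom 16 and 0, where these tools called 6.79% and 2.71%, and 5.96% and 1.26%, of all genes. Plat, tissue plasminogen activator, had means of 55.9 ± 16.2 CPM (cHet) and 110 ± 24.8 CPM (cKO) (adjusted p = 0.0970). Pcsk5, a proprotein convertase, stood at 40.7 ± 21.6 and 148 ± 55.2 CPM (adjusted p = 0.105), and Furin, which activates MMP11 and MMP14, at 104 ± 38.9 and 188 ± 23.2 CPM (adjusted p = 0.131). The 2 lower genes of this list were Plaur and Pcsk6 (edgeR adjusted p = 0.258 each). Plaur stood at 43.9 ± 65.1 and 7.21 ± 4.67 CPM, with 141 CPM in cHet12, and Pcsk6 at 42.0 ± 10.8 and 29.4 ± 3.61 CPM. Serping1, a serpin that inhibits complement proteases, stood at 87.9 ± 37.2 and 282 ± 103 CPM (adjusted p = 0.0818), and Reck, a membrane-anchored MMP inhibitor, at 51.6 ± 22.2 and 130 ± 44.4 CPM (adjusted p = 0.165). Spock3, of the same list, stood at 4.37 ± 2.39 and 18.1 ± 8.16 CPM without overlap (edgeR adjusted p = 0.119). Adam12, a protease of mesenchymal cells, stood at 6.92 ± 1.92 and 16.3 ± 4.86 CPM (adjusted p = 0.0834), and Bmp1, the procollagen C-proteinase, at 82.4 ± 31.4 and 171 ± 44.3 CPM (adjusted p = 0.157). Ctss, among the lower genes of that list, stood at 64.7 ± 42.7 and 21.0 ± 9.43 CPM (edgeR unadjusted p = 0.0178), with overlap.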

How the data were processed

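Bulk RNA sequencing of 8 libraries (4 cHet, 4 cKO) was read from 1 deposited table of whole-number counts per Ensembl gene, made by the authors with no normalization. Reads were trimmed and aligned with Trim Galore and STAR to GRCm39 (mm39), per the submitters' processing notes; the counter, annotation and strand setting remain unknown (not given in the sources used here). A SMART-Seq v4 low-input kit, which does not mark strand, made the libraries, per the labels' protocols. Columns carry a group name and a number that matches no sample title, so each was assigned to its group only. Since nothing says that libraries are separate animals, p-values reflect only how these libraries scatter, and that scatter may be technical.

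Identifiers were matched to symbols for 52073 of 56748 genes, and the identifier with the largest total stood for a symbol. In R 4.3.3, edgeR 4.0.16 was run with TMM factors, its default count filter by group (21508 genes kept) and the quasi-likelihood test with genotype as the sole term, two-sided. CPM values use the TMM-scaled library sizes, and 1 count was worth 0.0190 to 0.0235 CPM. Standard errors were approximated from the log2 fold change and its F statistic (ratio of its size to the root of F). Single values were compared by exact permutation over 70 assignments. Alternatives were DESeq2 1.42.0, voom with quality weights (limma 3.58.1), RLE factors, library size alone, scaling to the mean log2 CPM of the mesenchymal markers, other count filters, summed identifiers, a threshold of 0.10 and omission of each library. Exonic lengths and overlaps are the union of GENCODE vM21 exons on GRCm38, so they are approximate for the authors' annotation.

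Values by library are given for called members, the TIMPs, the 12 tested members with the smallest p, members with a mean of at least 20 CPM, and Mmp20. Members, lists and tests were chosen with earlier results of these data known.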

Additional observations from a re-analysis of the deposited data

Results flagged for a closer look

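In groups of 4 libraries, a highest or lowest value was singled out when its gap to the nearest library exceeded 0.829 of the group's range. Among 66 groups examined (24 genes and 9 marker sums in each genotype), chance alone gives about 5% such values if values are normally distributed, which CPM need not be. Mmp25 was among the 24 genes because of its values, so its being singled out is not set against that share.

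In cHet, 3 proteases of leukocytes were singled out in the same library. In cHet12, Mmp8 stood at 1168 CPM (next 113 CPM), Mmp9 at 899 CPM (next 135 CPM) and Mmp25 at 56.9 CPM (next 3.28 CPM). The neutrophil marker sum was singled out in the same library, at 19812 CPM (next 1437 CPM).

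Mmp20 stood at 33.2 CPM in cHet8 (next 10.3 CPM). Mmp15 stood at 155 CPM in cKO9 (next 29.2 CPM). The endothelial marker sum stood at 33.6 CPM in cKO14 (next 14.96 CPM).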

How the results depend on the processing

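All 4 member calls are rises, and 15 of the 23 members given by library kept their sign under all 16 alternatives. No paired analysis was possible because the columns carry none of the replicate numbers of the labels. Of all tested genes, edgeR called 232 higher and 12 lower (95.1% higher); the counts were 1402 and 561 (71.4% higher) with DESeq2, 1281 and 271 (82.5%) with voom, 5 and 3 (62.5%) with mesenchymal scaling, 704 and 62 at a threshold of 0.10, and 5 lower without a count filter. Members called higher, 4 in edgeR, numbered 11 with DESeq2, 12 with voom, 2 with RLE factors and 0 with mesenchymal scaling. They numbered 3 with library size alone and 3 without a count filter, Mmp13 not among them in either. Members called lower, 0 in edgeR, numbered 3 with DESeq2 and 1 with voom. Related genes called higher, 3 in edgeR, numbered 13 with DESeq2, 16 with voom, 0 with mesenchymal scaling and 6 at 0.10, and those called lower, 0 in edgeR, numbered 3 with DESeq2. Leaving out 1 library gave 0 to 816 higher and 0 to 144 lower among all genes, 0 to 8 and 0 to 1 among members, and 0 to 7 and 0 to 1 among related genes; the highest counts came without cKO9. The cause was not tested.

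Signs turned with mesenchymal scaling for Mmp13 (−0.092), Timp1 (−0.55), Timp2 (−0.23), Adamts1 (−0.90), Adamts2 (−0.22), Mmp15 (−0.38) and Mmp20 (−0.95), where the median of all genes was −1.29. With ranges over the 8 omissions, they turned for Adamts1 without cHet11 (−0.026) and without cKO15 (−0.038; range −0.038 to 0.45), for Mmp15 with voom (−0.053) and without cKO9 (−0.58; range −0.58 to 0.99), and for Mmp16 without cKO7 (0.010; range −0.15 to 0.010). They also turned for Mmp20 without cHet12 (−0.11), cHet14 (−0.10) and cKO15 (−0.04; range −0.11 to 1.02), and for Mmp25 with voom (0.70) and without cHet12 (0.15; range −3.85 to 0.15). Of these, Mmp13 alone was a called gene. For genes under 5 CPM, depth and overlap with other genes limit what can be said.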
